A study of Homo sapiens with 6 samples.

Results

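The genes described here encode the machinery that makes microRNAs (miRNAs) and uses them to silence mRNAs, as measured in K562 cells, a human chronic myelogenous leukemia line. The members were 10 genes chosen by name: DROSHA, DGCR8, XPO5, DICER1, TARBP2, AGO1, AGO2, AGO3, AGO4 and TNRC6A. They were found by matching the transcript identifiers of the count files to gene symbols of the GENCODE annotation, and 9 of the 10 had a counted transcript, among 37110 genes in the whole data set. None of the 11 annotated transcripts of DGCR8, the RNA-binding partner of DROSHA, was among the counted ones, so DGCR8 has no value here. The study sequenced 4 total RNA-seq libraries, made after rRNA depletion, and 2 PRO-seq libraries, all from untreated cells of the same flask. PRO-seq maps engaged RNA polymerases through the nascent RNA they hold, whereas total RNA-seq measures the RNA present at steady state. Because the libraries share a flask, every p-value below measures the spread between libraries and not between cultures. RNA-seq replicates 1 and 3 were close to each other in their share of records outside transcripts, as were replicates 2 and 4. The tests take all 4 as separate libraries, which may overstate their number.

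MiRNA genes are transcribed as long primary transcripts, which the Microprocessor (DROSHA with DGCR8) cuts in the nucleus into hairpin precursors. Exportin-5, the product of XPO5, carries the hairpins to the cytoplasm, where DICER1, with its partner TARBP2, cuts out a short duplex. One strand of the duplex is loaded into an Argonaute protein (AGO1 to AGO4), and scaffold proteins of the GW182 family, such as TNRC6A, recruit deadenylation and decapping enzymes to the mRNA that the loaded strand pairs with. Argonaute 2 is the member of the family best known for cutting a fully paired target.

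For each gene, the ratio of steady-state to nascent RNA was used as a relative RNA half-life, as in the study. It has no time unit, and it assumes that production and decay are in balance. The study names a further limit: PRO-seq reads the occupancy of engaged polymerases, which depends on the rates of both transcription and elongation. The PRO-seq level and the ratio can therefore also vary with elongation rate, which was not measured here. Levels are in TPM, a share of the library in which each count is first divided by a length: the exon length of the counted transcript for RNA-seq, and its genomic span less 1000 bp for PRO-seq, since 500 bp at each end was taken as left out. Differences are given on the log2 scale relative to the median of 11026 tested mRNAs, with a standard error (SE). Each of 12946 transcription units (TUs) whose counts summed to at least 10 in each assay was tested against that median with edgeR's quasi-likelihood test, adjusted over all of them by the Benjamini-Hochberg method. A TU is called at an adjusted p under 0.05.

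The libraries held from 5732780 to 9002746 counts on transcripts for RNA-seq, and 6993816 and 7245632 for PRO-seq. All 10 listed markers of K562 cells, among them the erythroid regulators GATA1, TAL1 and KLF1, were above 1 TPM in every RNA-seq library, with summed levels from 11330 to 12185 TPM. Of the 7 matched markers of other blood cells, 2 were above 1 TPM in every RNA-seq library (LYZ and CD3D), and the list summed to between 439 and 452 TPM. The 3 fibroblast or liver markers summed to at most 2.30 TPM. The part of these other markers in the values below was not tested.

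What was counted differed between the members, because the files hold 1 transcript for each of them and these need not be the main mRNA. In XPO5, AGO2, AGO3 and AGO4 the counted transcript was the canonical one of the annotation. In DROSHA, DICER1 and TARBP2 it held 98.0%, 97.0% and 98.9% of the canonical exon bases. The counted transcript of AGO1 (ENST00000373206) held 99.0% of the canonical coding bases, but with a 3' UTR of 1351 nt in place of 10925 nt it held 28.4% of the canonical exon bases. The counted transcript of TNRC6A (ENST00000566108) had 3 exons with 454 nt in all and no annotated coding sequence, and it covered 0.612% of the canonical exon bases. Of the 11026 tested mRNAs, 58.1% were counted on their canonical transcript, 10.6% on one with under 50% of the canonical exon bases and 0.209% on one with under 1%. The row for TNRC6A is therefore not a measurement of the TNRC6A mRNA. Its values are given below for completeness, and the row is kept in the counts of members and in their median.

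Of the counted Argonaute transcripts, AGO2, AGO3 and AGO4 had long 3' UTRs. The counted 3' UTR was 11888 nt in AGO2 and 16755 nt in AGO3, at the 99.4th and 99.9th percentiles of the tested mRNAs. It was 4285 nt in AGO4 and 4254 nt in DICER1, at the 89.6th and 89.5th percentiles. DROSHA (935 nt), TARBP2 (1025 nt), AGO1 (1351 nt) and XPO5 (1534 nt) lay between the 45.4th and the 59.3rd percentile. In TARBP2 the 1025 nt belong to a transcript with an annotated coding sequence of only 339 nt. The canonical 3' UTR of TARBP2 has 283 nt, so part of the 1025 nt is canonical coding sequence. These lengths come from an annotation on GRCh37 and may not be those that the authors counted on, and the RNA-seq level of a gene falls as its assumed length grows.

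The 3' UTRs of the canonical transcripts were searched for matches to the seeds of 5 listed miRNAs, since members of this machinery are themselves known targets of miRNAs. The counts assay no miRNA, so a match is a feature of the sequence alone. Coding sequences were not searched, so a lack of matches concerns the 3' UTR alone. Members of the let-7 family and miR-103a-3p are shown because both are widely described as regulators of DICER1. Their mature sequences (RefSeq, GRCh38.p14) are printed with the seed, bases 2 to 8, in capitals.
let-7a-5p: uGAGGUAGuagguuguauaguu
miR-103a-3p: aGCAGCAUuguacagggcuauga
The letters searched on the transcript strand were CTACCTC for let-7a-5p and ATGCTGC for miR-103a-3p. An ATGCTGC followed by T also contains the TGCTGCT searched for miR-16-5p, so these matches can overlap. The canonical 3' UTR of DICER1 (4270 nt) held no match for let-7a-5p and 5 matches for miR-103a-3p, of which 4 were followed by an A as in a full 8-base site. That is 1.17 matches per kb, against 0.0858 per kb over the 3' UTRs of 10984 mRNAs, of which 14.4% held at least 1 match. The 5 matches are shown with their surroundings, the seed match in capitals, on the minus strand of chromosome 14 (GRCh37, all in the 3' UTR of DICER1).
chr14:95555795-95555801: cacctaaaatATGCTGCagatttta
chr14:95555194-95555200: gcttcgtggaATGCTGCatttatat
chr14:95553990-95553996: agtcctaactATGCTGCgttttata
chr14:95552719-95552725: ttaccatcacATGCTGCagctgttt
chr14:95552667-95552673: tacagtaatcATGCTGCagaaattt
The other members held between 0 and 5 matches for miR-103a-3p. DROSHA held no match for any of the 5 miRNAs in its 938 nt, whereas AGO1, AGO2 and AGO3 held 10, 14 and 15 matches in 3' UTRs of 10925, 11888 and 16755 nt. For miR-17-5p, AGO3 held 8 matches, or 0.477 per kb, against 0.182 per kb over all mRNAs.

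XPO5 had the highest level of the members in both assays. Its RNA-seq level was 109.5 ± 3.87 TPM (SD, n = 4), and its PRO-seq level was 181.5 ± 7.30 TPM (SD, n = 2). In RNA-seq it was followed by TARBP2 (86.2 ± 3.53 TPM), AGO1 (49.2 ± 2.43 TPM), DROSHA (24.8 ± 1.16 TPM), AGO2 (20.4 ± 1.34 TPM), DICER1 (13.9 ± 0.331 TPM), AGO4 (10.5 ± 0.495 TPM), AGO3 (9.64 ± 0.495 TPM) and the row of TNRC6A (5.91 ± 3.01 TPM). The ranges over libraries overlapped between AGO4 and AGO3 and between AGO3 and TNRC6A, and did not overlap between any other neighbours in this order. In PRO-seq the order after XPO5 was DROSHA (85.0 ± 2.93 TPM), AGO2 (74.4 ± 4.36 TPM), AGO1 (65.9 ± 0.0864 TPM), AGO3 (44.2 ± 1.85 TPM), TARBP2 (27.2 ± 1.57 TPM), AGO4 (22.8 ± 0.588 TPM), DICER1 (18.9 ± 0.564 TPM) and TNRC6A (8.54 ± 0.0772 TPM). With 2 libraries each, no neighbours overlapped in that order. TARBP2 thus stood 2nd in RNA-seq and 6th in PRO-seq, whereas DROSHA stood 4th and 2nd.

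Of the 9 members tested, 3 were above the median mRNA in relative half-life (TARBP2, AGO1 and DICER1), 4 were below it (DROSHA, AGO2, AGO3 and AGO4) and 2 were not called (XPO5 and TNRC6A). Over all 12946 TUs, 38.5% were called above the median mRNA and 48.5% below it, so 87.0% were called in either direction. Over the tested mRNAs alone these shares were 44.0% and 43.0%. A call by itself is thus common, and the members' calls are read by their size. The median member lay at 0.016 on the log2 scale relative to the median mRNA, and at -0.41 to 0.041 when 1 library of each assay was taken at a time (8 combinations). This median is over all 9, the row of TNRC6A among them. Over the members with over 90% of the canonical exon bases counted, which leaves out TNRC6A and AGO1, it was -0.38. The tested mRNAs had quartiles of -1.13 and 1.12. When a difference of over 2-fold was asked for, TARBP2, AGO2 and AGO3 alone were called among the members (edgeR, adjusted p = 2.6e-11, 0.011 and 2.4e-10).

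DROSHA, the nuclear ribonuclease of the Microprocessor, had a high nascent level and a steady-state level near that of the median mRNA. Its transcript ENST00000511367 spans chr5:31400604-31532168 on the minus strand (GRCh37) in 35 exons. The RNA-seq libraries held 484, 529, 361 and 405 counts, or 23.5, 24.3, 26.1 and 25.5 TPM, and the PRO-seq libraries held 2800 and 2997 counts, or 82.9 and 87.1 TPM. Its PRO-seq level was at the 80.8th percentile of the tested mRNAs and its RNA-seq level at the 54.2nd. The log2 difference from the median mRNA was -1.03 ± 0.0503 (SE, edgeR adjusted p = 4.3e-20), a 2.04-fold lower ratio that lay at the 27.0th percentile of mRNAs. Against a difference of over 2-fold it was not called (edgeR, adjusted p = 0.23).

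XPO5, the exporter of the precursor hairpins, differed from DROSHA in that its level was high in both assays. Its transcript ENST00000265351 spans chr6:43490072-43543775 on the minus strand (GRCh37) in 32 exons. The RNA-seq libraries held 2259, 2289, 1588 and 1754 counts (109.1, 104.8, 114.2 and 109.9 TPM), and the PRO-seq libraries 2403 and 2593 counts (176.3 and 186.6 TPM). These levels were at the 85.9th and the 95.0th percentile of mRNAs. Its relative half-life was close to the median mRNA, with a log2 difference of 0.026 ± 0.0419 that was not called (edgeR, adjusted p = 0.56). This difference was -0.015, -0.016 and -0.00079 without RNA-seq replicates 1, 3 and 4 in turn, none of them called (edgeR, adjusted p from 0.75 to 0.99). It was called below the median mRNA at -0.093 when TUs had to exceed a PRO-seq level of 10 TPM and an RNA-seq level of 1 TPM (edgeR, adjusted p = 0.036), and above it at 0.57 with at least 1 summed count (edgeR, adjusted p = 1.2e-35), settings that moved all members tested in them by -0.12 and 0.54. The counted transcript of POLR1C, on the other strand, covered 74.2% of the PRO-seq window of XPO5 and 1.88% of its exon bases. POLR1C had 3612 summed RNA-seq counts and 1438 summed PRO-seq counts, and without the strand setting of the counting it is uncertain how reads in the shared stretch were assigned.

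DICER1 and TARBP2, which act together in the cytoplasm, both lay above the median mRNA, by different amounts. DICER1 (ENST00000526495, chr14:95552581-95624347, minus strand, GRCh37, 29 exons) held 541, 599, 383 and 429 counts in RNA-seq, which are 13.5, 14.1, 14.2 and 13.9 TPM. In PRO-seq it held 354 and 346 counts, which are 19.3 and 18.5 TPM. It was among the members with lower PRO-seq levels, at the 30.9th percentile of mRNAs in PRO-seq, and at the 41.4th in RNA-seq. Its log2 difference was 0.31 ± 0.0715 (edgeR adjusted p = 0.00015), a 1.24-fold higher ratio. The miRNA gene MIR3173 lies within the span of DICER1 on the same strand, outside its counted exons, and DICER1-AS1 on the other strand shares 80 exon bases with it. DICER1-AS1 had 7 summed RNA-seq counts and 29 summed PRO-seq counts.

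TARBP2 encodes TRBP, the double-stranded RNA-binding partner of DICER1. Its counted transcript ENST00000550147 spans chr12:53894705-53900215 on the plus strand (GRCh37) in 9 exons and is annotated as a target of nonsense-mediated decay, although it holds 98.5% of the canonical coding bases. The RNA-seq libraries held 657, 657, 408 and 462 counts (91.1, 86.3, 84.2 and 83.1 TPM), and the PRO-seq libraries held 33 and 31 counts (28.3 and 26.1 TPM). With a window of 4511 bp, against a median of 32437 bp over the tested mRNAs, it had the fewest PRO-seq counts of all members. The log2 difference was 2.42 ± 0.142 (edgeR adjusted p = 9.2e-18), a 5.37-fold higher ratio at the 91.8th percentile of mRNAs. It stayed on this side and called in 14 of 14 alternatives tried, from 2.31 to 2.96. The log2 level of DICER1 less that of TARBP2 was between -2.76 and -2.57 in the RNA-seq libraries, and -0.55 and -0.49 in the PRO-seq libraries. The pair thus differed by -2.11 between the assays (exact two-sided permutation test over libraries, p = 0.0667), where 0.0667 is the smallest p that the 15 splits of 4 and 2 libraries allow, so no pair could reach 0.05.

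The 4 Argonaute genes fell into different places in the 2 assays. AGO4, AGO1 and AGO3 lie in this order on the plus strand of chromosome 1, at chr1:36273617-36323491, chr1:36335409-36386559 and chr1:36396706-36538101 (GRCh37), within 264485 bp. AGO2 lies alone on the minus strand of chromosome 8, at chr8:141530255-141645732. The counted transcripts leave gaps of 11917 bp between AGO4 and AGO1 and of 10146 bp between AGO1 and AGO3. Between the canonical transcripts of AGO1 and AGO3 the gap is 572 bp.

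AGO1 was the Argonaute with the highest RNA-seq level. It held 773, 748, 530 and 606 counts (49.7, 45.6, 50.8 and 50.6 TPM) in RNA-seq and 856 and 871 counts (66.0 and 65.9 TPM) in PRO-seq. Its log2 difference of 0.33 ± 0.058 put it above the median mRNA (edgeR adjusted p = 3.4e-06), a 1.26-fold higher ratio. Only 74.3% of its PRO-seq window lies within the span of the canonical transcript, since the counted transcript starts further upstream and ends earlier.

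AGO2 held 1264, 1181, 774 and 840 counts (22.3, 19.7, 20.3 and 19.2 TPM) in RNA-seq and 2111 and 2338 counts (71.3 and 77.5 TPM) in PRO-seq. It thus had the most counts of the 4 genes in both assays, but per base of its long transcript its RNA-seq level was below that of AGO1 and above those of AGO3 and AGO4. Its log2 difference was -1.11 ± 0.0503 (edgeR adjusted p = 4.0e-21), a 2.16-fold lower ratio.

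AGO3 had the lowest relative half-life of the members. It held 726, 756, 478 and 611 counts (9.50, 9.37, 9.31 and 10.4 TPM) in RNA-seq and 1652 and 1587 counts (45.5 and 42.9 TPM) in PRO-seq. The log2 difference was -1.44 ± 0.0531 (edgeR adjusted p = 6.4e-24), a 2.72-fold lower ratio at the 19.7th percentile of mRNAs. An antisense gene on the other strand, ENSG00000271554, covered 14.5% of its PRO-seq window and had 0 RNA-seq and 22 summed PRO-seq counts.

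AGO4 was the Argonaute with the lowest PRO-seq level. It held 276, 314, 202 and 238 counts (9.76, 10.5, 10.6 and 10.9 TPM) in RNA-seq and 294 and 289 counts (23.3 and 22.4 TPM) in PRO-seq. Its log2 difference was -0.37 ± 0.0845 (edgeR adjusted p = 0.00012), a 1.30-fold lower ratio.

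As a share of the summed TPM of the 4 genes, AGO1 took 54.8% ± 1.04 (SD, n = 4) in RNA-seq and 31.8% ± 0.322 (SD, n = 2) in PRO-seq. AGO2 took 22.7% ± 1.40 in RNA-seq and 35.9% ± 1.79 in PRO-seq, and AGO3 took 10.8% ± 0.534 and 21.3% ± 1.08. AGO4 took 11.7% ± 0.710 and 11.0% ± 0.381. With the annotated exon lengths, AGO1 and AGO2 thus changed places between nascent and steady-state RNA, while the share of AGO4 overlapped between the assays. Over the 6 pairs of Argonaute genes, the log2 level of one less the other differed between RNA-seq and PRO-seq by 1.45 for AGO1 and AGO2, 1.77 for AGO1 and AGO3, 0.70 for AGO1 and AGO4, 0.33 for AGO2 and AGO3, -0.74 for AGO2 and AGO4 and -1.07 for AGO3 and AGO4. Each of the 6 gave p = 0.0667 in the exact two-sided permutation test, the smallest value possible, and 0.0667 after adjustment over the 7 pairs of members compared. The libraries of the 2 assays did not overlap in any of these pairs.

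These differences among the Argonautes depended on the transcript length assumed for RNA-seq. With the RNA-seq length of every TU taken without its 3' UTR, a setting chosen after seeing the data, AGO2 lay at 0.35 and AGO3 at 0.35 relative to the median mRNA, both called above it (edgeR, adjusted p = 8.4e-08 and 3.3e-07). AGO1 and AGO4 then lay at -0.043 and -0.059 and were not called (edgeR, adjusted p = 0.48 and 0.51). The shares of RNA-seq TPM became 27.0% ± 0.865 for AGO1, 40.0% ± 2.04 for AGO2, 23.7% ± 1.22 for AGO3 and 9.28% ± 0.603 for AGO4 (SD, n = 4). The difference between the assays turned to -0.39 for AGO1 and AGO2 and to -0.39 for AGO1 and AGO3. It turned to 0.41 for AGO2 and AGO4 and to 0.41 for AGO3 and AGO4. For AGO1 and AGO4 it fell to 0.015, and for AGO2 and AGO3 to 0.00058. This setting still counts the reads in the 3' UTR, so a transcript with a long 3' UTR rises by construction. It is an extreme, since it moves the median mRNA itself by 0.97 on the log2 scale. AGO1 was also counted with a much shorter 3' UTR than its canonical one. Whether annotated length, transcript choice or RNA stability lies behind the differences among the Argonautes was not tested. Outside the Argonautes, DROSHA (-1.71) and TARBP2 (2.62) kept their direction and their call, DICER1 kept its direction at 0.11 without a call (edgeR, adjusted p = 0.14), and XPO5 moved to -0.45 with one (edgeR, adjusted p = 2.6e-12). For TARBP2 the length taken away was 1025 nt, part of it canonical coding sequence, so its value here is not one without the canonical 3' UTR alone. Of the 9 members, 2 kept their call in this setting and 7 changed it.

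**Figure D1:**
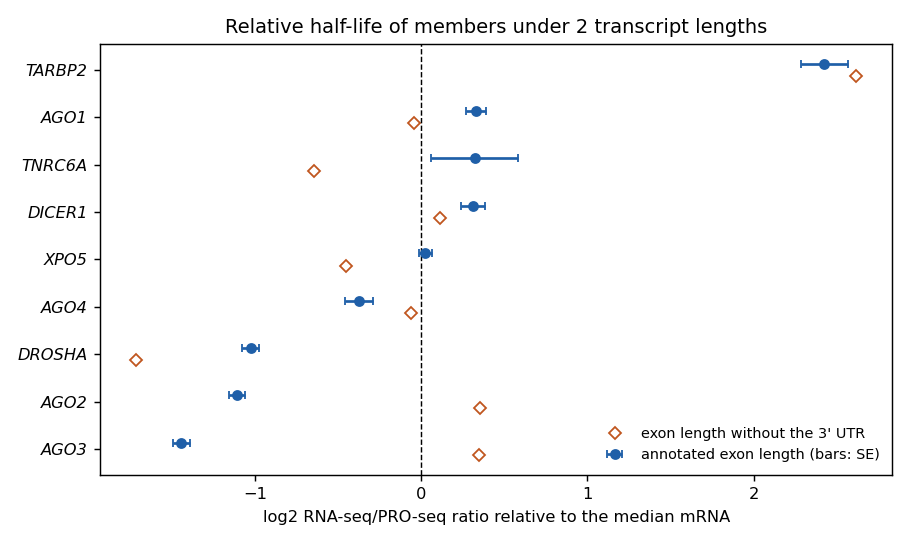
Filled points are the log2 RNA-seq/PRO-seq ratio of each member relative to the median mRNA, with bars of 1 SE, using the annotated exon length. Open diamonds use the exon length without the 3' UTR and move AGO2 and AGO3 from -1.11 and -1.44 to 0.35, across the dashed line of the median mRNA.

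When the tested mRNAs with an annotated 3' UTR were divided into 10 groups of nearly equal size by its length, the median log2 half-life fell from each group to the next, from 0.71 in the group with the shortest to -0.81 in the group with the longest 3' UTRs (4535 nt or more). AGO2 and AGO3, at -1.11 and -1.44, belong to this last group. AGO4 and DICER1 belong to the group before it, whose median was -0.46, and lay at -0.37 and 0.31. The RNA-seq level is divided by a length that includes this same 3' UTR, so grouping and half-life are not independent. In the study's regressions, 3' UTR length went with a lower half-life by its own ratio but a higher one by other methods. Its main estimates came from earlier published PRO-seq and poly-A+ RNA-seq libraries of K562 cells, not from the libraries used here. The study found half-lives from the earlier libraries less variable than those from its own. The study also cites earlier work with a negative association.

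The row of TNRC6A held 10, 19, 4 and 6 RNA-seq counts (5.66, 10.2, 3.37 and 4.41 TPM) and 310 and 312 PRO-seq counts (8.59 and 8.48 TPM). Its log2 difference was 0.32 ± 0.263 and was not called (edgeR, adjusted p = 0.25). RNA-seq replicate 2 decided its direction, since without it the difference was -0.17 (edgeR, adjusted p = 0.63). Under a replicate block it was 0.67 and called (edgeR, adjusted p = 0.038), though the labels do not state that the replicate numbers pair the libraries. Of its PRO-seq window, 14.8% lies within the span of the canonical transcript.

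The TUs nearest to the extreme members, by Euclidean distance over log2(TPM + 0.1) of the 6 libraries, were GNAS (distance 0.118) and WDR70 (0.144) for TARBP2. GNAS had mean levels of 86.4 TPM in RNA-seq and 27.5 TPM in PRO-seq. For AGO3 they were STX7 (0.144) and KIAA0040 (0.217), and STX7 had 9.95 TPM in RNA-seq and 44.3 TPM in PRO-seq.

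Beyond the members, 42 further genes of the pathway were listed by role. All of them had a counted transcript and 38 could be tested, of which 22 were above the median mRNA, 10 below it and 6 not called, with a median of 0.38. By the shares given above, 44.0% of mRNAs were above and 43.0% below. The 4 that could not be tested were AJUBA, a LIM-domain partner of Argonaute with 301 summed RNA-seq counts and 0 PRO-seq counts, and PIWIL1, PIWIL3 and HENMT1, genes of the germline PIWI pathway with 4, 5 and 1 summed RNA-seq counts.

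The proteins that assist Dicer or load Argonaute lay mostly above the median mRNA, with 9 of 10 called above, 1 not called, and a median of 1.59. Lengths without the 3' UTR gave 8 above, 1 below and 1 not called, with a median of 1.48. HSP90AA1 and HSP90AB1, chaperones that open Argonaute for the duplex, lay at 5.37 ± 0.0423 and 2.77 ± 0.0338 (SE, edgeR adjusted p = 3.5e-44 and 1.4e-38). HSP90AA1 had 1560 TPM in RNA-seq and 63.9 TPM in PRO-seq, but only 9.54% of its PRO-seq window lies within the span of its canonical transcript. SND1, a nuclease found in silencing complexes, lay at 3.14 ± 0.0413 (edgeR adjusted p = 1.1e-37). Both genes of the nuclear export list were also above the median, and RAN, the GTPase that exportins carry with their cargo, lay at 2.29 ± 0.047 (edgeR adjusted p = 8.5e-32).

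The cofactors of the Microprocessor were called above in 6 of 7 cases and below in 1, with a median of 0.65. Lengths without the 3' UTR gave 4 above, 2 below and 1 not called, with a median of 0.55. ERH, a small partner of the Microprocessor, was the highest at 3.47 ± 0.0592 (edgeR adjusted p = 3.0e-34), with 598.6 TPM in RNA-seq and 91.6 TPM in PRO-seq.

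The silencing effectors were the group that lay lowest, with 1 of 9 tested genes called above, 6 below and a median of -1.10. Among those not called, 1 was counted on a transcript of 676 nt without an annotated coding sequence. That transcript held 3.64% of the canonical exon bases. WTIP, a LIM-domain protein related to AJUBA, lay at -2.75 ± 0.256 (edgeR adjusted p = 3.4e-12) with 79 and 76 summed counts in RNA-seq and PRO-seq. TNRC6C, a paralog of TNRC6A, lay at -2.12 ± 0.111 (edgeR adjusted p = 3.3e-19), with 2.29 ± 0.431 TPM in RNA-seq (SD, n = 4) and 16.4 ± 1.45 TPM in PRO-seq (SD, n = 2). The counted transcript of TNRC6C held 68.0% of the canonical exon bases. TRIM71, a ubiquitin ligase known as a let-7 target, lay at -1.49 ± 0.548 (edgeR adjusted p = 0.012), with 13 and 22 summed counts. EIF4ENIF1, which carries the cap-binding protein into the repression complex, lay at -1.34 ± 0.08 (edgeR adjusted p = 1.6e-17). TNRC6B, the other paralog of TNRC6A, lay at -1.10 ± 0.0529 (edgeR adjusted p = 2.4e-20), with 7.68 ± 0.282 TPM in RNA-seq (SD, n = 4) and 27.8 ± 0.611 TPM in PRO-seq (SD, n = 2). Its counted transcript held 85.0% of the canonical exon bases, and 54.3% of its PRO-seq window lies within the canonical span. Several of these transcripts also have long 3' UTRs, with 12566 of 15958 nt in TNRC6B, 12035 of 13545 nt in WTIP and 6013 of 8704 nt in TRIM71. With lengths without the 3' UTR, 3 of the 9 were called above the median mRNA and 5 below, with a median of -0.72. TNRC6B then lay above it at 0.17 (edgeR, adjusted p = 0.0052), WTIP at -0.56 (edgeR, adjusted p = 0.031) and TRIM71 at -0.78 without a call (edgeR, adjusted p = 0.18), while TNRC6C and EIF4ENIF1 lay at -2.82 and -2.09, both called.

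The genes that tail, trim or turn over miRNAs were divided, with 3 of 8 above, 3 below, 2 not called and a median of -0.11. Of the 3 above, 1 was counted on a transcript with 10.3% of the canonical exon bases. Lengths without the 3' UTR gave 3 above, 4 below and 1 not called in this group, with a median of 0.016. Of the PIWI pathway, 1 gene was called above and 1 was not called among the 2 tested. No test was made between the groups, whose genes were listed with earlier results of these data known.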

How the data were processed

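For each of the 4 RNA-seq and 2 PRO-seq libraries, the authors deposited raw HTSeq counts per transcript, without normalization, after Cutadapt trimming and HISAT2 alignment to GRCh38 (submitters' processing notes and the study's methods). For tool versions, the GENCODE release and the strandedness of counting, the sources used here give nothing. Of 42371 Ensembl transcripts, 88.1% were matched by identifier to GENCODE v44 lifted to GRCh37, which supplied symbols, lengths and coordinates. Unmatched transcripts held 2.80% to 3.69% of a library's counts. Rows that name no transcript held 66.5% to 68.6% of the RNA-seq records and 86.5% and 88.6% of the PRO-seq records, and were left out. In RNA-seq they held 68.5% and 68.6% in replicates 1 and 3, and 66.5% in both replicates 2 and 4. Why these pairs were close was not tested. With each close pair summed, 3 members were called above the median mRNA and 4 below.

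Assays were compared with edgeR (version 4.0.16, R version 4.3.3; TMM, length offsets, quasi-likelihood test). DESeq2 (version 1.42.0) was an alternative. Members of a pair were compared by the exact permutation test over libraries. Levels and figures were computed with Python 3.11.15, numpy and pandas. In simulated counts for 12946 TUs, 200 of which carried a 2-fold change (log2 change of 1), edgeR called 78% of these in the right direction and made 13 false calls. The other simulated TUs had the same level per base in both assays, and the spread between libraries was set to a fixed value. In the data 87.0% of TUs were called, so these rates need not hold for the calls made here. Counts cover reads without molecular identifiers, and their number sets the precision of each value.

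The members and lists were chosen with earlier results of these data known. Beside the 42 pathway genes, 1 further gene is not reported here. All 10 members are named, with the 5 highest and 5 lowest tested genes of the pathway list, its untested genes, and the 2 TUs nearest to the highest and the lowest member. The alternatives covered PRO-seq length, count and TPM minimums, normalization, tool, replicate block, libraries left out, close RNA-seq pairs, 2-fold threshold and reference. RNA-seq length without the 3' UTR and members with over 90% of canonical exon bases counted were added after seeing the data.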

Additional observations from a re-analysis of the deposited data

How the results depend on the processing

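Over 21 results and their alternatives, 223 of 262 values kept their direction and their side of the threshold, or moved by less than the spread or count tolerance set for them. Members called above the median mRNA numbered 3, against 5 with at least 1 summed count, 5 with the median of all TUs as the reference and 1 in the test of a 2-fold difference. Members called below numbered 4, against 2 in the 2-fold test, and pathway genes 22 above and 10 below, against 11 and 4. With lengths without the 3' UTR the members numbered 3 above and 3 below, but 7 of the 9 changed their call, as did 12 of 38 pathway genes (21 above and 13 below). With at least 1 summed count all 9 members moved up by 0.54, so that AGO4 lay at 0.17 (edgeR, adjusted p = 0.087), XPO5 at 0.57 and TNRC6A at 0.86. The median of the tested mRNAs moved by -0.24 in that setting, by -0.18 under TPM thresholds of 10 and 1, and by 0.97 with lengths without the 3' UTR. Taking the median of all TUs as the reference in place of that of the mRNAs shifted the reference by -0.27. Under the TPM thresholds XPO5 lay at -0.093 (edgeR, adjusted p = 0.036) and TNRC6A was not tested.

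The median member, 0.016, was -0.0086 with 500 bp removed for PRO-seq, -0.30 under the TPM thresholds, 0.53 with at least 1 summed count, 0.28 against all TUs, -0.093 with 1 TPM added, -0.052 without the 3' UTR and -0.38 over members with over 90% of canonical exon bases counted. Leaving out 1 library gave -0.13 to 0.034 for the median member, -0.016 to 0.041 for XPO5 and -0.17 to 0.45 for TNRC6A. With lengths without the 3' UTR, AGO1 lay at -0.043, AGO2 at 0.35, AGO3 at 0.35, TNRC6A at -0.65 and XPO5 at -0.45, and the differences between the assays were -0.39 for AGO1 and AGO2, -0.39 for AGO1 and AGO3, 0.41 for AGO2 and AGO4 and 0.41 for AGO3 and AGO4. That difference was 0.015 for AGO1 and AGO4 (exact two-sided permutation test, adjusted p = 0.73) and 0.00058 for AGO2 and AGO3. Where no value shows it, the cause of these moves was not tested.

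With the replicate number as a block, 4 members were above and 4 below, and TNRC6A (0.67, edgeR adjusted p = 0.038) was the member whose call changed. The differences between replicates 1 and 2 had a correlation of -0.080 between RNA-seq and PRO-seq over 9341 mRNAs, so the libraries share only a number.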
